A study of Caenorhabditis elegans with 2 samples.

Results

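The germ line genes rme-2, oma-1, mex-5, rec-8, him-3 and pgl-1 all lie on chromosome IV of Caenorhabditis elegans, and each has a SNPC-4 peak near its start. They are 6 of the 46890 genes of the annotation, of which 19973 are protein-coding and 3281 of those lie on chromosome IV. The 6 genes were chosen by the peaks themselves, so having a peak, its signal, its rank and its place are descriptions here and carry no test. A peak was taken as a gene's own when its summit lay within 1000 bp of the annotated 5' end. By this rule the 6 genes share 4 peaks: rme-2 and oma-1 have 1 each, mex-5 and rec-8 share 1, and him-3 and pgl-1 share 1.

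The data are chromatin immunoprecipitation sequencing (ChIP-seq) peak lists for SNPC-4 carrying an eGFP tag, from whole young adult worms of pooled sex. Both samples are strain OP179, which carries unc-119(ed3) III and the insertion wgIs179. They are 2 biological replicates of a single group, and their fragments ran from 150 to 350 bp. The labels describe the target as eGFP-snpc-4 and give snpc-4 as the antibody. Untreated or untagged worms are not analysed here, and the labels do not say which promoter drives the tagged gene or whether the worm's own snpc-4 was intact. The worms were whole, so binding in few germ cells and weak binding in many cells cannot be told apart. How many reads lie behind each list is unknown, and nothing here gives an interval that would need it.

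SNPC-4 belongs to SNAPc, a complex that binds DNA upstream of small nuclear RNA genes and starts their transcription. In the worm germ line it also takes part in transcribing the 21U-RNA genes. These encode the worm's piRNAs, and most of them sit on chromosome IV. The 6 genes described here are ordinary protein-coding genes that act in oocytes and germ cells. RME-2 is the oocyte receptor for yolk, and OMA-1 is a zinc finger RNA-binding protein needed for oocyte maturation. MEX-5 is a related zinc finger protein that sets up the front-to-back axis of the embryo. REC-8 is a meiosis-specific subunit of cohesin, and HIM-3 is a protein of the meiotic chromosome axis. PGL-1 is a structural protein of P granules, the RNA-rich granules of worm germ cells.

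The sequence at the 4 summits is shown here because a word of 7 letters, AAGGCGC, recurs in it. Each run is the plus strand of ce11, 5' to 3', from up to 100 bp before to 100 bp after the summit, with exons left out. Capitals mark AAGGCGC or its reverse complement GCGCCTT. The rme-2 run is chrIV:5469844-5470025, the oma-1 run is chrIV:8888591-8888791, the mex-5 and rec-8 run is chrIV:13353341-13353541 and the him-3 and pgl-1 run is chrIV:6977319-6977420. In the last, the summit is base 2 of the run, because the bases before it belong to a pgl-1 exon; in the others it is base 101.
rme-2: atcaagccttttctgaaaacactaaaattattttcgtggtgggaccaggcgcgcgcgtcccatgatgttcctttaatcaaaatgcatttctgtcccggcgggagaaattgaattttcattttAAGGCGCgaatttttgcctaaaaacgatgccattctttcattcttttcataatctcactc
oma-1: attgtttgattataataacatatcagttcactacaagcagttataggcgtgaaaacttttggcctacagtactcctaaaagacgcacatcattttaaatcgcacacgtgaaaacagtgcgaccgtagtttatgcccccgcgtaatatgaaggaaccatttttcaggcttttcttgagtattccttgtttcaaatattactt
mex-5 and rec-8: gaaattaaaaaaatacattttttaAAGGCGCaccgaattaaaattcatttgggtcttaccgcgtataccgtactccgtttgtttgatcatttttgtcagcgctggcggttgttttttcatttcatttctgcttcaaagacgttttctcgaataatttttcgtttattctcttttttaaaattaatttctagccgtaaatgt
him-3 and pgl-1: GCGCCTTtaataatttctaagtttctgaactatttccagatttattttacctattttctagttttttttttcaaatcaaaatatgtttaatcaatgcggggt

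AAGGCGC was present at 3 of the 4 summits. It stood 22 to 28 bp to the right of the rme-2 summit, 76 to 70 bp to the left of the summit between mex-5 and rec-8, and from 1 bp left to 5 bp right of the summit between him-3 and pgl-1, there on the minus strand. Only oma-1 lacked it. None of the 8 windows centred 1000 bp to either side of these summits held it. The word was picked after these windows had been read, so its count at the 4 peaks supports nothing by itself.

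The same word was also counted in windows other than those read to pick it. Other words had been learned from these same peaks in an earlier analysis, so the other peaks are not an independent set. Windows of 201 bp were searched on both strands. Among the other 289 optimal peaks of chromosome IV within 1000 bp of a protein-coding 5' end, 35 held it (12.1%). Over all 293 such peaks, the 4 included, 13% held it, against 0.853% of 586 windows 1000 bp to either side and 1.98% of the 3281 windows just upstream of chromosome IV protein-coding genes. On the other 5 chromosomes it was found at 55 of 736 promoter peaks (7.47%), against 1.56% of 1472 windows beside them and 1.60% of 16692 upstream windows. In the 35 windows of chromosome IV the word's centre lay a median of 26 bp from the summit. The median signal was 58.6 with the word and 47.6 in the 254 windows without it, and that difference was not tested.

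None of 5 other words of 8 letters occurred at any of the 4 summits. CTGTTTCA, the core of the motif upstream of 21U-RNA genes, was held by 7.17% of the 293 peaks and by none of the 183 that had no 21U-RNA gene or other small RNA gene within 1000 bp. AAACGCGC (8.53% of the 293), AGACGCAG (10.2%), CGGAACCC (2.39%) and GGGTTCGA (2.73%) had been learned from these same peaks in an earlier analysis. Just upstream of the 3281 protein-coding genes of chromosome IV the 5 words were held by 3.63%, 1.13%, 3.11%, 0.152% and 0.183% of windows, in the order named. The share of G and C in the 201 bp windows was 41.8% at rme-2, 36.8% at oma-1, 35.3% between him-3 and pgl-1 and 31.8% between mex-5 and rec-8, beside a median of 38.8% over the 293 peaks and 32.3% upstream of chromosome IV protein-coding genes.

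The values come from 4 lists made by the authors. The optimal list, of peaks that passed their irreproducible discovery rate step, held 1781 peaks with signal values from 31.12 to 1801. The relaxed lists, deposited as peaks and background together, held 30000 peaks for the pooled reads, 20730 for replicate 1 and 30000 for replicate 2. Signal is the value of the authors' caller, and it is compared within a list only.

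The gene rme-2 (chromosome IV, 5470026 to 5473174, plus strand) had by far the highest signal of the 6. Its optimal peak, from 5469816 to 5470035, had a signal of 140.3 and rank 150 of 1781, with the summit 82 bp upstream of the 5' end. Its relaxed peak had a signal of 61.37 and rank 138 in replicate 1, and a signal of 80.98 and rank 160 in replicate 2. The summits of both replicates lay within 4 bp of the optimal one. So rme-2 stood near the top of every list, and its peak was also narrow: 220 bp in the optimal list, where 71.7% of peaks had the list's median width of 324 bp. Inside the gene, weaker relaxed peaks stood 497 bp (pooled list, signal 4.713), 507 bp (replicate 1, 4.72) and 672 bp (replicate 2, 4.248) downstream of the 5' end. A second annotated start of rme-2 lies 288 bp farther downstream, which puts the optimal summit 370 bp upstream of it.

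The gene oma-1 (8888976 to 8890999, plus strand) had an optimal peak from 8888529 to 8888852 with a signal of 38.06 and rank 1140. Its summit lay 285 bp upstream of the 5' end. The signal was 16.41 in replicate 1, at rank 1138, and 21.19 in replicate 2, at rank 1683. Both summits lay within 11 bp of the optimal one, and both ranks were inside the first 1781 of their lists. The next optimal peak stood 2630 bp away, 141 bp upstream of the neighbouring gene spr-2, and was stronger, at 53.28. No other optimal peak of the 4 had a neighbour nearer than 32815 bp.

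The genes mex-5 (13353723 to 13356104, plus strand) and rec-8 (13349122 to 13353193, minus strand) start 530 bp apart and face away from each other. A single optimal peak lay between them, from 13353279 to 13353602, with a signal of 40.05 and rank 1010. Its summit was 282 bp upstream of mex-5 and 248 bp upstream of rec-8, so neither gene was favoured by distance. In replicate 1 the signal was 20.88 at rank 659, with the summit 20 bp nearer to rec-8. In replicate 2 it was 18.63 at rank 2208, with the summit at the same base as the optimal one. The annotation gives rec-8 other starts 1166 and 3878 bp inside the gene, and no optimal summit lay within 1000 bp of either.

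The genes him-3 (6977508 to 6978765, plus strand) and pgl-1 (6974441 to 6977318, minus strand) also face away from each other, with 5' ends only 190 bp apart. Their shared optimal peak, from 6977158 to 6977481, had the lowest signal of the 4, 33.87, and rank 1479. The summit fell 2 bp upstream of the pgl-1 5' end and 188 bp upstream of that of him-3. In replicate 1 the signal was 21.86 at rank 591 and the summit lay 30 bp inside pgl-1. In replicate 2 it was 14.32 at rank 3744 and the summit was 5 bp upstream of pgl-1. Further annotated starts of pgl-1, 69 and 175 bp inside the gene, would put the optimal summit 71 and 177 bp upstream.

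The strongest side peaks in the pooled and replicate 2 lists lay around him-3 and pgl-1. The pooled list had a peak of 17.66 within pgl-1, 897 bp from its 5' end and just past the 1000 bp limit of him-3 at 1087 bp upstream. It also had a peak of 11.44 at 1198 bp downstream of the him-3 5' end, and one of 10.53 at 1609 bp inside pgl-1. Replicate 2 had peaks of 10.43 and 9.01 near the first 2 of these places. Around rme-2, oma-1, mex-5 and rec-8 no side peak within 2000 bp exceeded 7.123 in any list. The optimal list itself ends at 31.12, and the strongest pooled peak left out of it had 31.11.

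**Figure D1:**
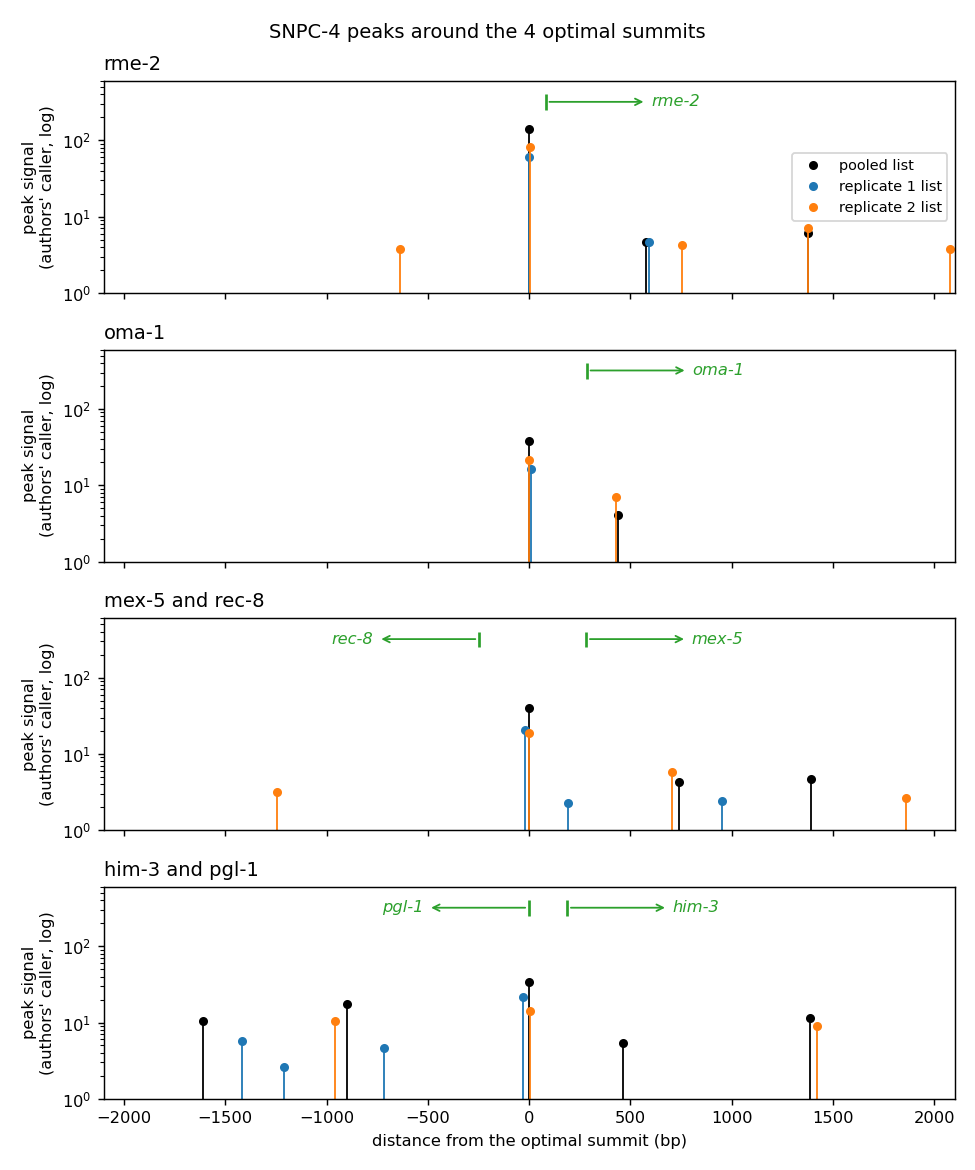
Peaks within 2000 bp of the 5' ends in the pooled, replicate 1 and replicate 2 relaxed lists, as distance from the optimal summit in bp (x axis) and the authors' signal on a log scale (y axis). Green ticks and arrows mark the 5' ends and directions of the genes. The central peak is the highest in each panel, and the side peaks are highest beside pgl-1, at 17.66.

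The 2 replicates ranked the 4 peaks differently. Cut at the 1781 strongest peaks, the list of replicate 1 held all 4, and that of replicate 2 held those of rme-2 and oma-1 only. The peak between mex-5 and rec-8 stood at rank 659 in replicate 1 and 2208 in replicate 2, and that between him-3 and pgl-1 at 591 and 3744. The lists have different lengths, so these ranks place a peak in its own list and measure no change. In the full relaxed lists all 4 peaks had a summit within 100 bp in both replicates. Among all 293 promoter peaks of chromosome IV, 282 were matched within 200 bp in both full lists. The first 1781 of replicate 1 held 70.0% of them and those of replicate 2 held 79.9%, with 56.0% in both and 14% in replicate 1 alone. Both replicates entered the optimal list, so neither is an independent repeat of it. The authors' -log10 q was the same, 3.979, for all 4 peaks in replicate 1; in replicate 2 it was 3.727 for 3 of them and 3.397 for that between him-3 and pgl-1.

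**Figure D2:**
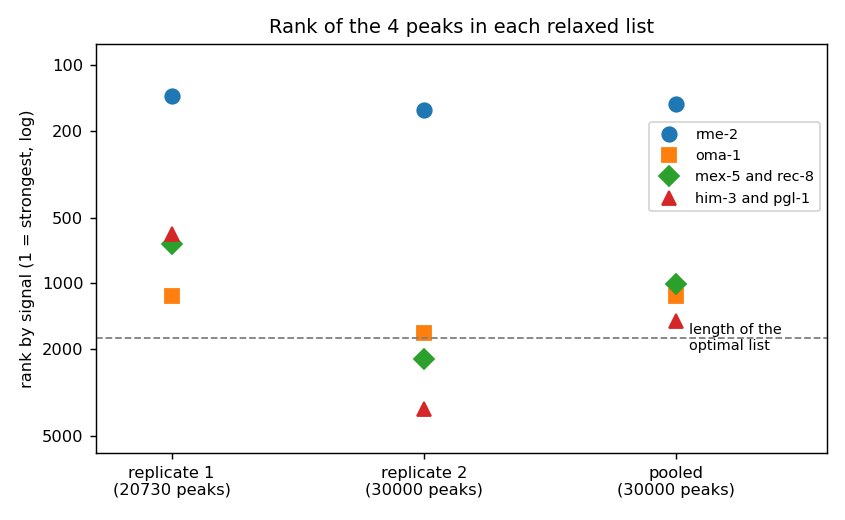
Rank by signal (log scale, 1 is the strongest) of the 4 peaks in the relaxed lists of replicate 1, replicate 2 and the pooled reads. The dashed line marks the length of the optimal list, 1781 peaks. The rme-2 peak stays between 138 and 160, while the 2 shared promoters have ranks of 2208 and 3744 in replicate 2, past the line.

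Peaks near protein-coding starts were common on this chromosome. An optimal summit lay within 1000 bp of the 5' end for 6 of the 6 genes, by choice, for 11.7% of the 3281 protein-coding genes of chromosome IV and for 7.28% of all 19973. In the pooled relaxed list these shares were 58.6% on chromosome IV and 44.1% in all. They were 48.7% and 37.7% in replicate 1 and 59.6% and 46.7% in replicate 2. Relaxed peaks therefore stood near 37.7% to 46.7% of all protein-coding genes.

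Among the 293 promoter peaks of chromosome IV, signal had a median of 47.61 with quartiles of 35.47 and 83.28. The rme-2 peak, at 140.3, ranked 36 of 293, and 13 of the 183 that had no 21U-RNA or other small RNA gene within 1000 bp. The peak between mex-5 and rec-8 ranked 183 of 293, that of oma-1 ranked 199, and that between him-3 and pgl-1 ranked 246, below the lower quartile. So rme-2 lay above the upper quartile and the other 3 peaks lay below the median. The summit offset from the nearest start had a median of -170 bp over the 293 peaks, with quartiles of -319 and -49 bp, where negative is upstream. From the nearest start, the offsets of the peaks at rme-2 (-82 bp), rec-8 (-248 bp) and oma-1 (-285 bp) fell between these quartiles. That of the peak at pgl-1 (-2 bp) did not. The offsets from the farther starts of the 2 shared peaks, him-3 (-188 bp) and mex-5 (-282 bp), are not comparable with these quartiles.

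A divergent promoter, with genes leaving in both directions, held 2 of the 4 peaks and 4 of the 6 genes. For the 293 promoter peaks of chromosome IV, 90 (30.7%) had a pair of divergent protein-coding 5' ends within 1000 bp of the summit, and in 85 the summit lay between them. Among the 183 peaks with no small RNA gene nearby, 75 (41.0%) did. Of all 3281 protein-coding genes of the chromosome, 629 (19.2%) had a divergent neighbour starting less than 1000 bp upstream. Under the 1000 bp rule a single peak between such starts is counted for both genes. The shared promoters join an embryonic axis regulator with a meiotic cohesin, and a meiotic axis protein with a P granule protein; that both partners are germ line genes follows from how the 6 were chosen. The summits of rme-2 and oma-1 had no other annotated 5' end of any class within 1000 bp.

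None of the 4 summits had a 21U-RNA 5' end within 1000 bp. The nearest annotated 21U-RNA 5' end was 9394 bp from the rme-2 summit (21ur-7008), 9278 bp from that of oma-1 (21ur-15139), 8727 bp from that between mex-5 and rec-8 (21ur-8623) and 5454 bp from that between him-3 and pgl-1 (21ur-13688). So each was more than 5000 bp away. Among the 293 promoter peaks, the median distance was 4782 bp with quartiles of 772 and 17200 bp, 82 peaks (28%) had a 21U-RNA 5' end within 1000 bp, and 145 (49.5%) had none within 5000 bp. The nearest snRNA, snoRNA, tRNA, rRNA or miRNA gene was at least 38574 bp away, beside oma-1, and 82445 to 106610 bp away at the other 3 summits.

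On a larger scale the 4 loci differed. The rme-2 gene lies in a 100 kb window with 141 annotated 21U-RNA genes, and 174 lie within 50000 bp of its summit, but 3 lie within 10000 bp. Taking windows with at least 50 such genes as 21U-rich, 54 of the 175 windows of the chromosome qualify, and 47.8% of the 293 promoter peaks lie in them. The him-3 and pgl-1 window holds 48, just under that limit, and its summit lies 377320 bp from the nearest 21U-rich window. The mex-5 and rec-8 window holds 2, and the summit lies 246560 bp from a 21U-rich window. The oma-1 window holds 1, and the summit lies 2288691 bp from one. Only rme-2 was therefore inside such a window, and it had no other optimal peak within 50000 bp, while the other loci had 1 to 3.

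**Figure D3:**
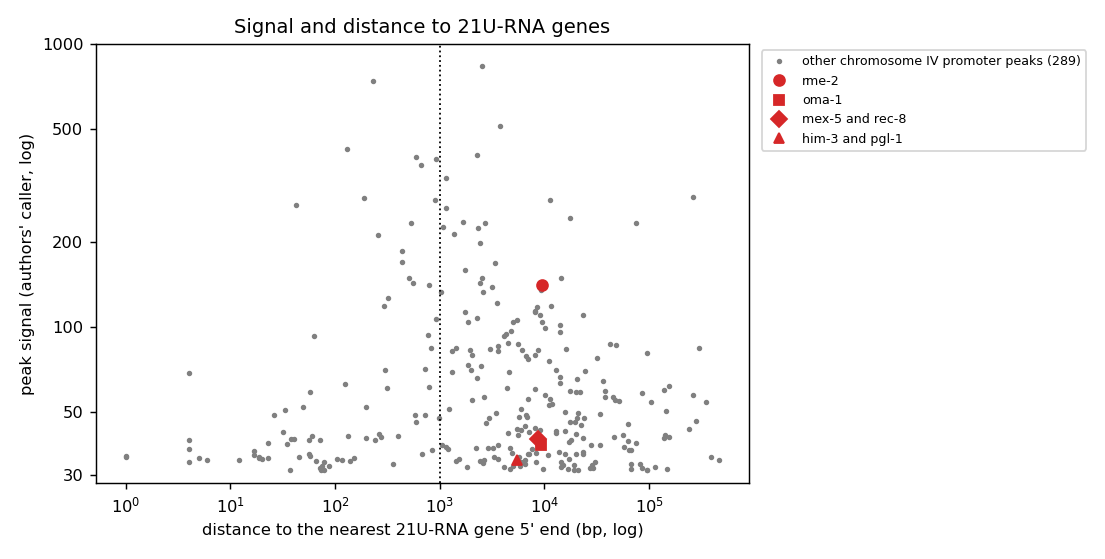
Signal in the optimal list (log scale) against the distance in bp from the summit to the nearest 21U-RNA 5' end (log scale, 1 peak at 0 bp drawn at 1) for the 293 promoter peaks of chromosome IV. Red symbols are the 4 peaks, which lie between 5454 and 9394 bp, right of the dotted line at 1000 bp.

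Close relatives of oma-1, mex-5, rec-8, him-3 and pgl-1 were listed after the data had been seen. Of 9 relatives, 1 had an optimal peak, beside 7.28% of all protein-coding genes and 11.7% of those on chromosome IV, and nothing is read from that count. It was htp-1, which encodes a HORMA domain protein like HIM-3 and is also on chromosome IV, with a signal of 34.12, rank 1450 and a summit 296 bp upstream. Its relaxed signal was 16.48 in replicate 1 and 18.02 in replicate 2. That optimal summit also lies within 1000 bp of the start of ZK616.5, between divergent starts and in a 21U-rich window. Its offset from the nearest protein-coding start was -76 bp, so htp-1 is not the nearer gene. The relatives coh-4 and coh-3, meiotic cohesin subunits like REC-8, had pooled relaxed signals of 24.82 and 17.44, which are below the optimal list's end. The OMA-1 partner oma-2 reached 26.71 in the pooled list, with 9.16 in replicate 1 and 11.57 in replicate 2. The signal was 18.76 at htp-2, 8.018 at htp-3, 6.241 at pgl-3 and 5.32 at mex-6 in the pooled list. The pgl-2 gene had only a replicate 2 peak of 2.711, near that list's floor of 2.587.

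A wider set of germ line genes, in 5 lists drawn up with earlier results of these data known, was counted the same way. Leaving out the 6 genes, 15 of 118 had an optimal peak (12.7%, 95% Clopper-Pearson interval 7.29 to 20.1), beside 7.28% of all protein-coding genes. On chromosome IV it was 3 of 19 (15.8%, interval 3.38 to 39.6), beside 11.7% of the chromosome's protein-coding genes. On the other chromosomes it was 12 of 99 (12.1%, interval 6.42 to 20.2). The 7.28% includes the chromosome IV genes, so the share of all protein-coding genes on the other chromosomes alone is lower than that. The intervals cover the counting of genes only. The 7.28% of all protein-coding genes lies beside the lower bound of the first interval, 7.29, and the lists are not read as set apart from other genes. The pooled relaxed list had a peak at 82 of the 118 (69.5%), beside 44.1% of all protein-coding genes.

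By role, 3 of 17 other oocyte genes had an optimal peak: egg-5, an egg activation protein, puf-11, an RNA-binding protein of the Pumilio family, and cpg-1, an eggshell proteoglycan. The egg-5 peak, with a signal of 1277, also lies beside the SL2 RNA gene sls-2.4. The signals at puf-11 and cpg-1 were 94.08 and 48.09, and the puf-11 summit also lay within 1000 bp of another annotated start. Of 14 embryo polarity and maternal regulators, 3 had one (21.4%): par-2 (64.53), mex-1 (59.94) and pkc-3 (33.1). The first 2 had summits 641 and 922 bp upstream, within 1000 bp of the starts of 2 other genes each. The pkc-3 summit also lay within 1000 bp of the start of F09E5.22. Of 38 meiotic chromosome genes, 5 had one (13.2%). The strongest were syp-4, part of the synaptonemal complex, at 211.3 with an snRNA gene within 1000 bp of the same summit, pch-2, an ATPase of the meiotic checkpoint, at 42.78, and mre-11, a DNA break repair nuclease, at 40.49. The starts of tmem-138 and wdr-5.3 also lay within 1000 bp of the pch-2 and mre-11 summits, in that order.

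Of 27 germ granule and small RNA pathway genes, 1 had an optimal peak (3.7%, interval 0.0937 to 19.0, which spans the 7.28% of all protein-coding genes), the RNA helicase gene cgh-1 (48.56, summit 756 bp upstream). The start of C07H6.9 also lay within 1000 bp of the cgh-1 summit. Of 22 RNA regulators of the germ line, 3 had one (13.6%): puf-3 (77.29), atx-2 (62.22) and nos-3 (57.19). The atx-2 summit, 630 bp upstream, also lay within 1000 bp of the start of ecps-1, and that of nos-3 within 1000 bp of Y53C12B.1. Sperm genes were counted too: 3 of 31 major sperm protein genes (9.68%) and 2 of 29 spe genes (6.9%) had one. The former were msp-65 at 185.7, msp-58 at 42.29 and msp-50 at 38.32, with summits 866, 699 and 573 bp downstream of the 5' ends. The msp-65 summit lies beside the SL2 RNA gene sls-2.17 and the 21U-RNA genes 21ur-7860 and 21ur-8976, and that of msp-58 beside the start of ZK354.3. The spe genes were spe-48 at 43.16 and spe-15 at 33.93, the latter with its summit 537 bp downstream. The spe-48 summit also lay within 1000 bp of the start of Y51F10.11, and that of spe-15 within 1000 bp of F47G6.6. Major sperm protein genes are near-identical copies, so reads there may not be placed on 1 gene. For comparison, 3 of 30 genes of chromosome IV listed as somatic had an optimal peak. These were bli-6, a cuticle collagen, at 138.2, daf-10, a transport protein of sensory cilia, at 48.02, and lin-45, the worm Raf kinase, at 47.53. Whether the genes listed as somatic also act in the germ line was not tested. The lin-45 summit lay 762 bp downstream of the 5' end. The bli-6 summit, 332 bp upstream, also lies within 1000 bp of the start of hrpf-2, and the daf-10 summit, 942 bp upstream, within 1000 bp of those of aly-2 and rpb-12.

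**Figure D4:**
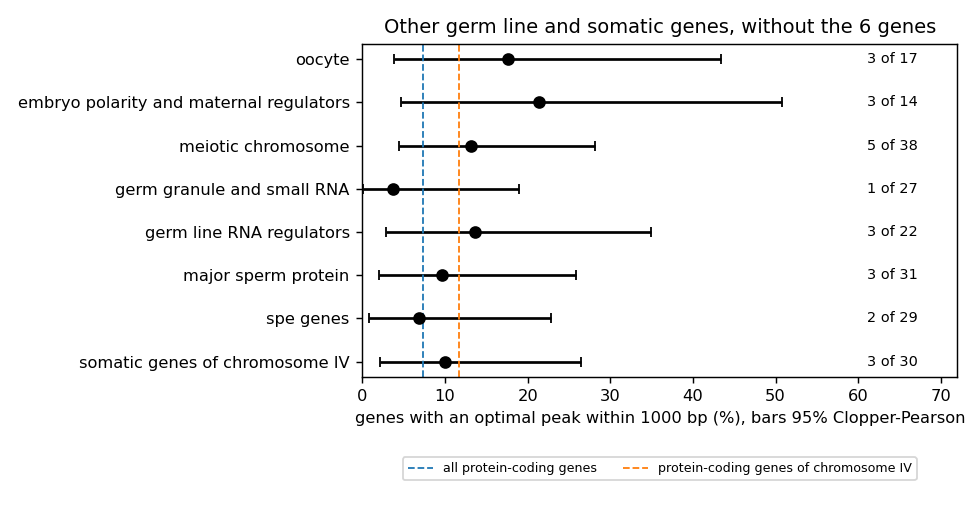
Share of genes with an optimal peak within 1000 bp of the 5' end (x axis, percent) in each list, with the 6 genes left out; bars are 95% Clopper-Pearson intervals and the counts stand at the right. The dashed lines mark 7.28% of all protein-coding genes and 11.7% of those on chromosome IV, which the wide intervals of the small lists span.

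The genes most like each of the 6 were found from their rank percentiles in the pooled and both replicates' relaxed lists, where 100 is the strongest peak. There were 1294 candidate genes on chromosome IV for rme-2 and oma-1, and 1293 for the others, whose partner was left out with the shared peak. The nearest to rme-2 was T22D1.18, with 99.48, 99.31 and 99.47 in the pooled, replicate 1 and replicate 2 lists, where rme-2 had 99.5, 99.34 and 99.47. The T22D1.18 summit lay 638 bp downstream of that gene's 5' end, and its offset from the nearest protein-coding start, of another gene, was -119 bp. The nearest to oma-1 was slmp-1, at a distance of 1.08 percentile points, that to mex-5 and rec-8 was Y38F2AL.12, at 1.17, and that to him-3 and pgl-1 was uroc-1, at 0.805. The uroc-1 percentiles were 95.31, 96.72 and 86.89, where him-3 and pgl-1 had 95.07, 97.15 and 87.52, a likeness that the choice by these percentiles fixes. The likeness is of rank alone. The uroc-1 summit lay 45 bp from a 21U-RNA 5' end in a 21U-rich window, against 5454 bp for the summit between him-3 and pgl-1. The Y38F2AL.12 summit lay 416 bp downstream of that gene's 5' end. Likeness here rests on 3 lists made from 2 libraries.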

How the data were processed

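Starting points were the deposited ce11 peak lists; the peak caller, aligner and discovery rate threshold are not given in the sources used here. Per the deposited files' notes, each relaxed list was called against a control alignment, not analysed here, and the optimal list derives from the pooled and both replicates' lists. The authors' signal value, summit position and deposited -log10 q value stand in columns 7, 10 and 9. The summit is column 2 plus 1 plus column 10. The ce10 lists were not used.

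Genes and 5' ends came from Ensembl release 115 (WBcel235, the ce11 assembly), and sequence from the RefSeq genome of the same assembly. Names in the wider lists were matched by symbol or synonym; 3 (smc-1, rad-54, prg-2) had no protein-coding match. Python 3.11.15, pandas 2.3.3 and scipy 1.17.1 were used, and the code was tested on simulated data with planted peaks. No test was run: the design has 1 group, and members and lists were chosen with earlier results of these data known. Genes named were the 6, the up to 3 strongest of each wider list, the nearest by rank, and, outside the rule, relatives and neighbours chosen after their values were seen. Alternatives were other distances, single replicates and stricter lists. Whether the replicates' spread is technical is not known.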

Additional observations from a re-analysis of the deposited data

How the results depend on the processing

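Of the 6 genes, all 6 kept an optimal peak at 300, 500 and 2000 bp and with any transcript's 5' end. The stronger 50% of the optimal list kept 1, rme-2, and peaks matched in both replicates' lists of the optimal length kept 2, rme-2 and oma-1. Leaving out each replicate gave 2 genes without replicate 1 and 6 without replicate 2. All 6 had a summit in both full relaxed lists at 100, 200 and 500 bp. The share of chromosome IV protein-coding genes with a peak was 6.71% at 300 bp and 16.5% at 2000 bp. In the cut lists it was 11.3% without replicate 1 and 11% without replicate 2. The strongest signal at each gene was the same at all 3 distances, offsets and distances to 21U-RNA genes moved by at most 32 bp with the transcript start nearest the summit, the nearest base of the 21U-RNA gene or either replicate (the farther starts of rme-2, rec-8 and pgl-1 are given above), and rank percentiles moved by at most 3.7 when only optimal peaks near protein-coding genes were ranked. Depth is unknown, which limits what a rank in 1 replicate can show. The cause of the changes was not tested. No paired analysis was possible because there is 1 group.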
